A study of Mus musculus with 6 samples.

Results

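H3f3b, Baz2a and Arid1b are 3 mouse genes whose proteins package and remodel chromatin, and each had 1 transcript among the 1037 transcripts of a deposited RNA sequencing table. The members were chosen by name, as all rows whose RefSeq accession belongs to 1 of the 3 genes, and they had been proposed because these same transcripts differed between the 2 treatments of the study. Their differences are therefore given as a description, with no test. The samples were primary CD8+ T cells from the spleen of wildtype mice, kept in RPMI medium with fetal bovine serum and exposed for 2 h either to daunorubicin (DNR) or to its solvent dimethyl sulfoxide (DMSO), with 3 samples of each. DNR is an anthracycline that intercalates into DNA, poisons topoisomerase II and, as a class, is known to displace histones from chromatin. The labels name biological replicates without saying if these are separate mice, so the spread between the samples may be technical. Strain, age and the number of mice remain not given in the sources used here. No gene was targeted in this design.

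DNA is wound around histones, and cells change its accessibility by exchanging histones for variants and by moving nucleosomes with ATP-driven complexes. H3f3b and its sister gene H3f3a both encode the same protein, the variant histone H3.3, which is made and deposited outside replication and marks transcribed genes and regulatory regions. Baz2a, also called Tip5, encodes the large subunit of the nucleolar remodelling complex NoRC, which works with an ISWI ATPase and is known for silencing ribosomal RNA genes. Arid1b encodes a DNA-binding subunit of the BAF (SWI/SNF) remodelling complex, where it takes the place that Arid1a fills in other copies of the complex.

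H3f3b lies on chromosome 11, 116021961 to 116026039 on the minus strand, and spans 4.1 kb. Baz2a lies on chromosome 10, 128091370 to 128129303 on the plus strand, and spans 37.9 kb. Arid1b lies on chromosome 17, 4994297 to 5347656 on the plus strand, and spans 353.4 kb. These are RefSeq positions on GRCm38.p6, 1-based. The listed H3f3b transcript, NM_008211, is a curated entry and matches a GENCODE transcript of 1993 bases in 4 exons. The listed transcripts of Baz2a (XM_011243286) and Arid1b (XM_006523223) are computationally predicted models. RefSeq holds 2 models for H3f3b, 18 for Baz2a and 4 for Arid1b, and 1 of each gene is in the table, so the sum of listed transcripts per gene equals the single transcript. The level of the whole gene cannot be read from it, least of all for Baz2a.

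The coding starts of the H3.3 genes are shown because both genes encode 1 protein, and a level for H3f3b alone needs reads that tell them apart. The first 60 coding bases are printed 5′ to 3′ from the GENCODE vM21 transcripts that match the RefSeq entries, with the bases that differ between the genes in capitals.
H3f3b: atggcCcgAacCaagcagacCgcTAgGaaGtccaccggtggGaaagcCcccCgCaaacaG
H3f3a: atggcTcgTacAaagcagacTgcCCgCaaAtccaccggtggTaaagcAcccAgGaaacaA
In this stretch 13 bases differ. Over the 408 coding bases without the stop codon 76.7% are identical, 81 of the 95 differences fall on the last base of a codon, and the longest identical run is 23 bases. No stretch of 50 bases of a GENCODE transcript of H3f3b occurs in a transcript of H3f3a. Of the 3016 distinct 50-base stretches of H3f3b, 6.86% occur in transcripts of 3 other genes, all with predicted-gene names (Gm6485, Gm37486 and Gm43584). The share was 2.53% for Baz2a and 0 of 12641 for Arid1b. The read length, and how reads that match several genes were counted, remain not given in the sources used here. No other annotated gene overlaps H3f3b or Baz2a. A processed pseudogene, Gm15599, overlaps Arid1b on the opposite strand, and whether counting used strand is not given either.

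The table holds log2(FPKM + 1), where FPKM are sequenced fragments per kilobase of transcript scaled to the size of the library. FPKM below were recovered from it. The summed FPKM of the table ran from 13501 to 13669 in the DMSO samples and from 14023 to 14395 in the DNR samples, and the read depth is unknown. Tested were the 388 transcripts with 1 FPKM or more in 3 or more of the 6 samples, and all 3 members were among them. The table appears to hold transcripts selected for a difference between these samples: 99.7% of the tested transcripts passed limma's threshold of 0.05 on the adjusted p, 43.0% higher and 56.7% lower in DNR, and 99.7% had groups that did not overlap. Of 350 tested sums of listed transcripts per gene, 90.6% passed, 39.1% higher and 51.4% lower. A shift of all samples to the same median raises DNR by 0.18 against DMSO, and after it 61.2% of the calls were higher and 38.8% lower, in place of 43.2% and 56.8% as deposited. None of the 8 CD8 T cell markers checked (such as Cd3e and Cd8a) is among the matched genes, so the labelled cell type could not be checked through them. Csf1r, a marker of monocytes and macrophages, was listed at 58.5 to 63.2 FPKM in the DMSO samples and 69.6 to 79.1 FPKM in the DNR samples. The share of other cells in the samples was not tested. The columns were assigned to DMSO and DNR by their codes, as given with the processing, and all directions rest on that reading.

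H3f3b was among the most abundant transcripts of the table and was higher in DNR. It stood at 644, 675 and 675 FPKM in DMSO replicates 1 to 3 and at 764, 821 and 849 FPKM in DNR replicates 1 to 3. The groups did not overlap, and 88.4 FPKM separated the highest DMSO sample from the lowest DNR sample. The means were 665 ± 17.6 FPKM for DMSO and 811 ± 43.7 FPKM for DNR (SD, n = 3), a difference of 146.6 ± 27.2 FPKM (SE) and a ratio of 1.22. On the log2(FPKM + 1) scale the difference was 0.29 ± 0.04 (SE from limma), 0.47 with samples shifted to a common median and 0 with quantile normalization. The last value follows from ranks: H3f3b held rank 3 in each of the 6 samples, behind Actb and Actg1, which encode cytoplasmic actins, and quantile normalization gives equal ranks equal values.

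**Figure D1:**
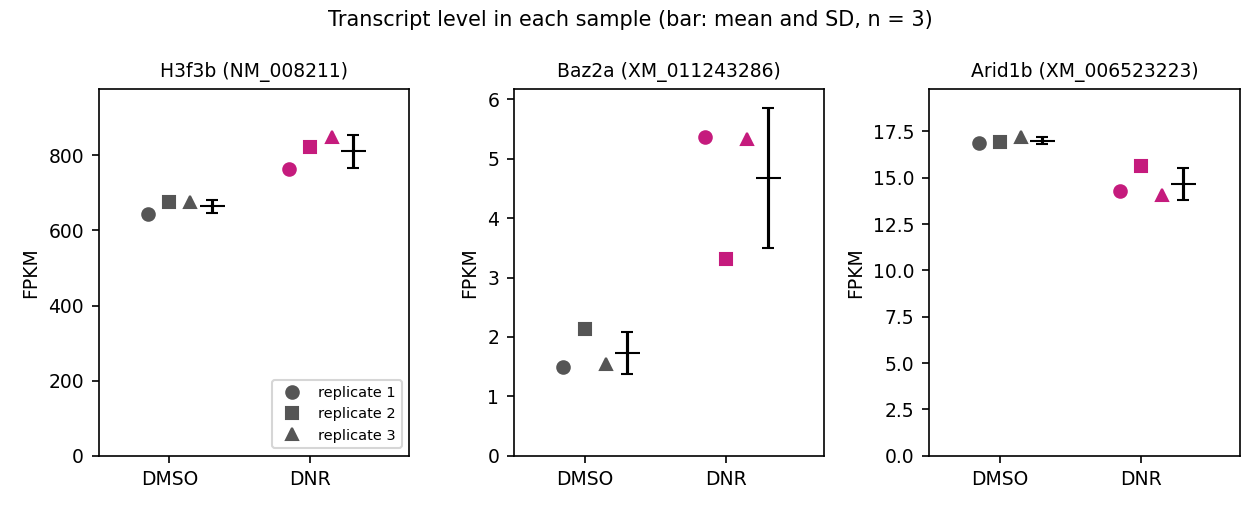
FPKM of the listed transcript of H3f3b, Baz2a and Arid1b in each sample, with a panel per gene, marker shapes for replicate numbers, and the mean with its SD (n = 3) at the right of each group. The DNR samples of H3f3b and Baz2a lie above all DMSO samples and those of Arid1b below them, and DNR replicate 2 lies nearest to the DMSO samples for Baz2a and Arid1b.

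Other abundant transcripts moved the same way as H3f3b by smaller amounts. Within a factor of 2 of its mean level were 5 other tested transcripts, all of them with every DNR sample above every DMSO sample, and their log2 differences ran from 0.12 to 0.21. H3f3b made up 4.72% to 5.00% of the summed FPKM of the table in the DMSO samples and 5.45% to 5.90% in the DNR samples. Relative to Actb in the same library, which cancels any factor common to a library, H3f3b was at 0.608, 0.646 and 0.661 in DMSO and at 0.690, 0.731 and 0.722 in DNR. The ratio to Actb was thus higher in each DNR sample than in each DMSO sample, and its mean was 1.12 times as high. Actb itself differed between the groups, so this shows an unequal difference of the 2 transcripts and not which of them was stable.

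Baz2a, the NoRC subunit, was a low transcript with the largest relative difference of the 3. It stood at 1.49, 2.13 and 1.55 FPKM in DMSO replicates 1 to 3 and at 5.37, 3.31 and 5.33 FPKM in DNR replicates 1 to 3. The groups did not overlap, and DNR replicate 2 was nearer to the DMSO samples than the other DNR samples were. The means were 1.72 ± 0.35 and 4.67 ± 1.18 FPKM (SD, n = 3), a ratio of 2.71, and single pairs of samples gave ratios from 1.55 to 3.60. The difference on the log2(FPKM + 1) scale was 1.04 ± 0.19 (SE from limma), 1.23 with samples shifted to a common median and 1.06 with quantile normalization. Without DNR replicate 2 and with no rescaling it was also 1.23. With a pseudocount of 0.1 it was 1.37, since a pseudocount of 1 understates the difference of a transcript this low.

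Larger rises than that of Baz2a were also seen among low transcripts of the table. Of the 89 other tested transcripts within a factor of 2 of the mean level of Baz2a, 36 had every DNR sample above every DMSO sample, 52 had every DNR sample below, and 12 were higher in DNR by more than Baz2a was. Some of these 12, such as Stx16 (0, 0.02 and 0 FPKM in DMSO), passed the filter only through the DNR samples, where they were high. Baz2a itself was above 1 FPKM in each DMSO sample. The within-group spread was also widest for Baz2a. Its coefficient of variation was 20.5% in DMSO and 25.2% in DNR, against 2.65% and 5.38% for H3f3b and 1.09% and 5.80% for Arid1b. The other 17 RefSeq models of Baz2a are not in the table, so a difference in this model cannot be told apart from a different split of the gene's reads among its models. In GENCODE vM21, which annotates 8 transcripts of Baz2a, 21.5% of the gene's distinct 50-base stretches occur in 1 of them only.

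Arid1b, the BAF subunit, was a transcript of middle level and was slightly lower in DNR. It stood at 16.9, 16.9 and 17.2 FPKM in DMSO replicates 1 to 3 and at 14.3, 15.7 and 14.1 FPKM in DNR replicates 1 to 3. The DMSO samples lay within 0.34 FPKM of each other, and the highest DNR sample was 1.22 FPKM below the lowest of them. The means were 17.0 ± 0.19 and 14.7 ± 0.85 FPKM (SD, n = 3), a ratio of 0.863. The log2 difference was -0.20 ± 0.06 (SE from limma), but -0.016 with samples shifted to a common median and -0.023 with quantile normalization. The size of the Arid1b difference thus differed with the scaling. As deposited it was close to the middle of the table: the median difference over the 388 tested transcripts was -0.22. A shift to a common median largely removes a difference of that size. The value after the shift follows from that place in the table and does not show which scaling is right. Of 84 other transcripts of like level (within a factor of 2) that were lower in DNR, 76 were lower by more.

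**Figure D2:**
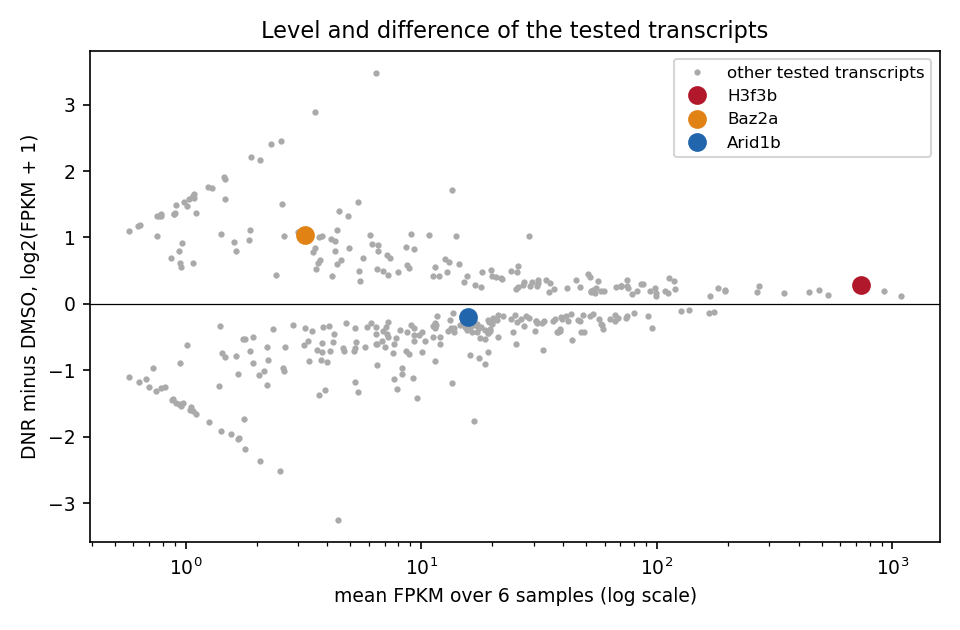
Difference between DNR and DMSO on the log2(FPKM + 1) scale against the mean FPKM over 6 samples (log axis) for the 388 tested transcripts, with H3f3b, Baz2a and Arid1b in colour. H3f3b lies at the abundant end above 0 by 0.29, Baz2a among low transcripts at 1.04, and Arid1b just below 0 at -0.20, and few transcripts lie near 0 at any level.

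Ratios between the members within a library do not depend on the scaling of samples. H3f3b was at 38.2, 39.9 and 39.2 times the FPKM of Arid1b in DMSO and at 53.4, 52.5 and 60.4 times in DNR. Baz2a was at 0.088, 0.126 and 0.090 times the FPKM of Arid1b in DMSO and at 0.375, 0.212 and 0.379 times in DNR. As a percentage of the FPKM of H3f3b, Baz2a was at 0.231%, 0.315% and 0.230% in DMSO and at 0.703%, 0.403% and 0.628% in DNR. None of the 3 ratios overlapped between the groups, so H3f3b and Baz2a were higher relative to Arid1b, and Baz2a higher relative to H3f3b, in every DNR sample whatever common factor is applied to a library. For the ratios to Arid1b this had to follow, since the members were proposed for their differences and Arid1b differed in the opposite direction. How often the ratios of other pairs of transcripts overlap was not computed, so these ratios are a description only. In levels per length, H3f3b was highest, Arid1b next and Baz2a lowest in each of the 6 samples, and neighbours in that order did not overlap: in the sample where they were closest, DNR replicate 3, Arid1b was at 2.64 times the level of Baz2a.

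The pattern of a transcript over the 6 samples can be compared with that of the other 387 tested transcripts by Pearson's correlation of log2(FPKM + 1). All points share the same 6 libraries and most of the table differs between the groups, so high values are common. A correlation above 0.9 was reached by 23.8% of the others for H3f3b, 13.4% for Baz2a and 16.0% for Arid1b. The genes most like H3f3b were Tmem106c (r = 0.989), Pml, the organiser of PML nuclear bodies (r = 0.989), and Hspa8, a constitutive heat shock chaperone (r = 0.985). For Baz2a they were Stx16 (r = 0.983), Chd4, the ATPase of the NuRD remodelling complex (r = 0.981), and Fry (r = 0.975). The transcripts of Stx16, Chd4 and Fry were below 1 FPKM in each DMSO sample and so passed the filter only through DNR. For Arid1b they were Ciz1 (r = 0.989), Fgd2 (r = 0.988) and Traf6 (r = 0.982). In the 3 most like Arid1b, DNR replicate 2 was the highest DNR sample, as for Arid1b itself. Fgd2, for one, stood at 5.13, 8.14 and 3.64 FPKM in DNR replicates 1 to 3 and at 13.2, 12.4 and 12.9 FPKM in DMSO. These genes were picked for their correlation over the same 6 samples, so the shared order follows largely from that choice.

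Gene span differed widely among the members and ran with direction across the table. H3f3b, at 4.1 kb, ranked 322 of 338 tested genes by span with the longest first, Baz2a ranked 171 and Arid1b ranked 5. Of the other tested transcripts from genes under 10 kb, 47 had every DNR sample above every DMSO sample and 7 had every DNR sample below. From 10 to 100 kb the counts were 100 and 141, and at 100 kb or more they were 13 and 65. Some genes enter these counts more than once: Jund and Egr2, both under 10 kb, have several entries with identical values. The span classes were not matched for transcript level. The higher level of H3f3b and the lower level of Arid1b thus lay on the more frequent side of their span class, and Baz2a on the less frequent side of its class. The part of gene span in the members' differences was not tested.

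**Figure D3:**
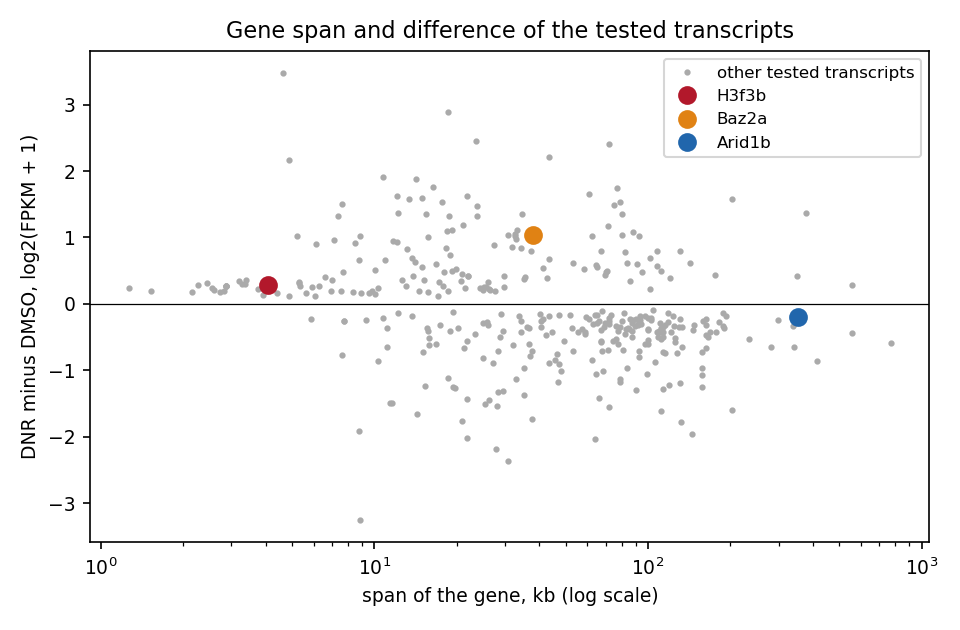
Difference between DNR and DMSO on the log2(FPKM + 1) scale against the span of the gene in kb (log axis) for the tested transcripts with a matched gene. Short genes lie mostly above 0 and long genes mostly below it, with H3f3b (4.1 kb) in the former and Arid1b (353.4 kb) in the latter.

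The 250 bases before 1 annotated RefSeq transcript start per gene also differed in letters between H3f3b and the other members. All 3 windows lie inside the gene's span, since other models of each gene start further upstream, and 214 bases of the H3f3b window, all 250 of the Baz2a window and 135 of the Arid1b window are in an annotated GENCODE exon of the same gene. The counts below are thus partly of transcribed sequence. On either strand, its window holds CCAAT 4 times, as often as or more often than all but a few windows (0.84% of 32851 gene starts hold it at least 4 times, and 33.8% hold it at all). It holds TATAAA once, which 12.4% of all windows hold, and no GGGCGG. Baz2a and Arid1b hold neither CCAAT nor TATAAA there, and each holds GGGCGG once, which 32.7% of all windows hold. All 3 windows are rich in CG dinucleotides, with 19 in H3f3b, 20 in Baz2a and 37 in Arid1b against a median of 6. The listed Baz2a and Arid1b models may start elsewhere, and their own starts were not used here.

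Other genes of the same machinery were few in the table. Lists of 233 symbols (with older and newer names of the same gene) covered histone variants and chaperones, ISWI, BAF, CHD, INO80 and SWR remodellers, histone-modifying enzymes and readers, and ribosomal RNA gene transcription. They were written with results of these data known. In the table were 34 transcripts of 26 of these genes, and 13 transcripts of 13 genes were tested. Of these, 5 rose and 8 fell (limma, adjusted p from 0.00054 to 0.0086), which is 38.5% and 61.5%, near the 43.0% and 56.7% over all tested transcripts. Since 99.7% of all tested transcripts passed the threshold, a pass does not set any of these genes apart, here or below. Of the 5 that rose, 3 (Chd4, Kat6a and Ncor1) reached 1 FPKM in DNR samples alone and so passed the filter only through the group where they were high. This leaves 2 that rose and 8 that fell among genes at 1 FPKM in samples of both groups. Across the table, 40 tested transcripts reached 1 FPKM in DNR samples alone and 34 in DMSO samples alone. The shares higher and lower were not computed for the rest of the table, so the 2 and 8 are not read as a result. The median difference over all 13 was -0.32 on the log2 scale, against -0.22 over all. No gene of the histone variant list, H3f3a and H2afz among them, or of the histone chaperone list, such as Hira, Daxx and Asf1a, was among the matched genes. What happened to the partners that deposit H3.3 can therefore not be read here.

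In the BAF complex, 2 of 3 tested genes fell, against 56.7% of all tested transcripts, and 3 genes are too few to differ from that share. Arid1b was also lower, by about the median difference of the table. Ss18, a subunit of the complex, fell from 28.3 ± 1.23 to 20.9 ± 0.96 FPKM (SD, n = 3; log2 difference -0.42 ± 0.06, SE; limma, adjusted p = 0.00093). Bicra, a subunit of the non-canonical form of the complex, fell from 7.92 ± 0.43 to 4.93 ± 1.05 FPKM. Actb, whose product beta-actin is also a BAF subunit but serves mainly in the cytoskeleton, rose from 1042 ± 19.5 to 1136 ± 36.7 FPKM, with a difference of 0 under quantile normalization. Arid1a, the alternative to Arid1b, and the core subunits Smarca4 and Smarcb1 were not among the matched genes.

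Among the other ATP-driven remodellers, 1 transcript rose and 1 fell. Chd2, a CHD-family ATPase, stood at 65.8, 62.9 and 67.1 FPKM in DMSO, against 53.9, 51.4 and 51.1 FPKM with DNR. This fall of 0.32 ± 0.04 on the log2 scale missed the threshold after the shift to a common median (limma, adjusted p = 0.054). One listed model of Chd4 went from 0, 0.17 and 0 FPKM in DMSO to 1.69, 1.21 and 2.26 FPKM in DNR. Another listed model of Chd4, below the filter, stood at 1.26, 0 and 0.01 FPKM with DMSO and was at 0 throughout DNR, so a change of the gene as a whole cannot be read from the call. Of the ISWI and BAZ list, to which Baz2a belongs by family, 2 models of Bptf were listed and none was tested, and Smarca5, the ATPase of NoRC, was not among the matched genes. Taf1a, a subunit of the factor that recruits RNA polymerase I to the ribosomal RNA genes that NoRC acts on, fell from 6.65 ± 0.96 to 3.80 ± 0.34 FPKM (SD, n = 3; log2 difference -0.67 ± 0.13, SE; limma, adjusted p = 0.0036). It was the 1 tested gene of its list, and 56.7% of all tested transcripts were lower in DNR.

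Of the histone-modifying enzymes and readers, 3 of 7 tested genes rose and 4 fell, which is 42.9% and 57.1%, near the 43.0% and 56.7% over all tested transcripts. Kmt2e, a SET-domain protein of the MLL family, fell from 40.8 ± 3.94 to 25.1 ± 5.19 FPKM (SD, n = 3). Kdm5a, a histone H3 lysine demethylase, fell from 36.3 ± 1.00 to 30.0 ± 1.28 FPKM, but missed the threshold after the shift to a common median (limma, adjusted p = 0.24). Kdm6b, another H3 lysine demethylase, and Setd5, a SET-domain protein, fell by 0.57 and 0.53 on the log2 scale. One listed model of Hdac5, a class IIa histone deacetylase gene, rose from 3.30 ± 0.90 to 6.60 ± 0.28 FPKM. Another listed model of Hdac5, below the filter, stood at 0.01, 0 and 2.13 FPKM in DMSO and was at 0 throughout DNR. A change of Hdac5 as a whole can therefore not be read from the call. The corepressor gene Ncor1 and the acetyltransferase gene Kat6a both rose by 0.61 on the log2 scale in models that stood below 1 FPKM in each DMSO sample. The 5 genes that rose include 4 predicted models, and 6 of the 8 that fell were curated transcripts. Over all tested transcripts other than the members, 112 curated and 53 predicted ones were called higher, and 108 curated and 111 predicted ones lower. Of the predicted models that rose among the chromatin genes, 3 (Chd4, Kat6a and Ncor1) passed the filter only through DNR. The count among 5 genes is therefore not read as a result.

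**Figure D4:**
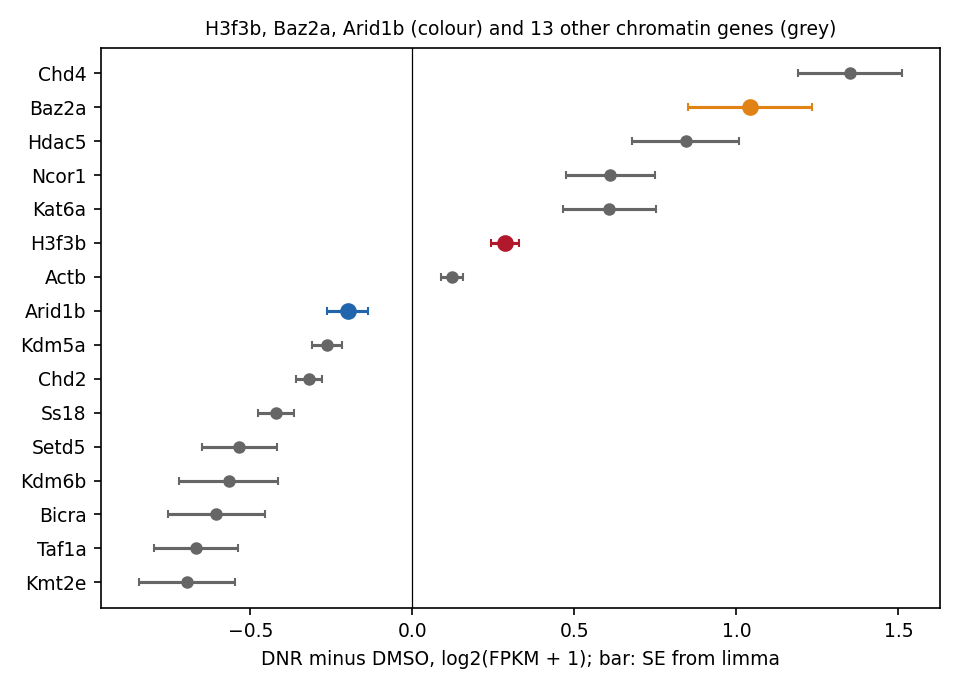
Difference between DNR and DMSO on the log2(FPKM + 1) scale, with its SE from limma as bars, for H3f3b, Baz2a and Arid1b (colour) and the 13 other tested chromatin genes (grey). The differences run from -0.69 for Kmt2e to 1.35 for Chd4, and Baz2a at 1.04 lies next to Chd4 while Arid1b at -0.20 has the smallest fall.

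A marker of another cell type was present in all 6 samples. Csf1r, the receptor of monocytes and macrophages, stood at 63.2, 62.8 and 58.5 FPKM in DMSO replicates 1 to 3 and at 69.6, 71.1 and 79.1 FPKM in DNR replicates 1 to 3. Its direction was that of H3f3b and Baz2a and not that of Arid1b. Every DNR sample was above every DMSO sample in 43.0% of all tested transcripts. Csf1r was the 1 listed gene of 6 monocyte and macrophage markers, and its sum per library was therefore the same. Of 3 dendritic cell markers 1 was listed, at 0.96 to 1.23 FPKM in the DMSO samples and 1.14 to 1.51 FPKM in the DNR samples summed over its 2 transcripts. Of 6 B cell markers 1 was listed, Ebf1, at 0 in the DMSO samples and up to 1.72 FPKM in DNR. None of the 3 natural killer, 2 CD4 T cell or 4 erythroid and platelet markers was among the matched genes. Since the table appears selected for a difference, the absence of a marker does not show that its gene was silent. The part of other cells in the members' differences was not tested, and in bulk RNA fewer cells of a type and less RNA per cell cannot be told apart.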

How the data were processed

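RNA from 3 DMSO and 3 DNR samples of mouse CD8+ T cells was sequenced by the authors from libraries made with a SMARTER mRNA kit, per the labels' protocols. The deposited table holds log2(FPKM + 1) per RefSeq transcript on a log2 scale: 2 to the power of each value minus 1 was a 2-decimal number, within 1e-06 FPKM, for 100% of values. Builds were GRCm38 and mm10, per the submitters' processing notes. Aligner, quantifier, annotation release and the rule for choosing the listed transcripts remain not given in the sources used here. FPKM keep no read totals, so depth and counting error are unknown. Column codes with O match the endings of the DMSO descriptions alone, and codes with D were read as DNR, from the names alone.

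Accessions were matched without version to RefSeq genes of GRCm38.p6 (1013 of 1037 transcripts, 847 genes). All tested transcripts were fitted with limma 3.58.1 in R 4.3.3 (treatment alone, eBayes with trend, two-sided test, Benjamini-Hochberg), and gene sums likewise (350 tested, 90.6% called). Sequences were read from GENCODE vM21 and start windows from RefSeq, with Python 3.11.15. Members and lists were chosen with earlier results of these data known. Named were the members, each tested gene of the lists, untested ones whose groups did not overlap, and for each member the 3 genes with the highest correlation. Untested transcripts of the lists that are described further were chosen after their values were seen. Alternatives were a pseudocount of 0.1, a common median, quantile normalization, the replicate number as a block, leaving out each sample, and no filter on low values.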

Additional observations from a re-analysis of the deposited data

How the results depend on the processing

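The members kept their direction under all alternatives that were run, except that H3f3b differed by 0 with quantile normalization, as a transcript and as a gene sum. Both scalings were estimated on the listed transcripts or on their sums per gene. With samples shifted to a common median, H3f3b differed by 0.47 as a transcript and 0.43 as a gene sum, and Arid1b by -0.016 and -0.061. With quantile normalization Arid1b differed by -0.023 and -0.045. With a pseudocount of 0.1 Baz2a differed by 1.37. When a sample was left out, the differences ran from 0.25 to 0.33 for H3f3b, 0.95 to 1.23 for Baz2a and -0.24 to -0.17 for Arid1b. The shift to a common median lowered the count of transcripts that fell from 220 to 106 and of gene sums that fell from 180 to 94, and the cause was not tested. Among the 13 other chromatin genes, 3 calls were lost under a scaling: Chd2 and Kdm5a with the common median and Actb with quantile normalization. With no filter on low values, 6 chromatin genes rose and 11 fell. With the replicate block, 167 transcripts rose and 218 fell, and 137 gene sums rose and 177 fell. Deviations from the group means were hardly correlated between samples with the same number (-0.055, 0.046 and 0.043 for replicates 1 to 3). The table appears selected for differences between the groups, so this cannot show if samples with the same number share a mouse or a preparation. Unknown depth limits what can be said of transcripts at a few FPKM, Baz2a among them.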

Other observations

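Below the filter were 21 transcripts of the chromatin lists, of which 10 were above 0 in 1 sample only and 5 had groups that did not overlap. The listed model of Nsd2, a histone H3 methyltransferase gene, stood at 0.89, 1.28 and 0.69 FPKM in DMSO replicates 1 to 3 and was listed at 0 in the DNR samples. A model of Kmt5a, a histone H4 methyltransferase gene, stood at 0.40, 1.60 and 1.37 FPKM in DMSO and was listed at 0 in DNR. A model of Mta3, of the NuRD complex, stood at 0.72, 0.80 and 0.78 FPKM in DMSO, against 0, 0 and 0.01 FPKM with DNR. For Nsd1, a methyltransferase gene, XM_030247183 stood at 0.12, 0.01 and 0.68 FPKM in DMSO and was listed at 0 in DNR, while XM_030247184 was listed at 0 in DMSO and stood at 0.32, 0.90 and 1.22 FPKM in DNR. Of the 26 chromatin genes in the table, 7 had more than 1 listed transcript. Brd9, of the non-canonical BAF complex, had 3: 2 of them were each above 0 in a single DMSO sample, at 1.89 and 1.69 FPKM, and the third was at 1.57, 0 and 4.78 FPKM in DNR and listed at 0 in DMSO.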
